A study of Mus musculus with 7 samples.

Results

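Forkhead genes of the pharyngeal arches, Foxf1, Foxf2, Foxc1, Foxc2, Foxd1 and Foxd2, were followed, 6 in all, through single-cell RNA-seq of mouse neural crest cells. They were chosen by symbol, 6 of the 32285 genes listed, and each was detected in every library. Levels were measured in mesenchymal cells, defined as cells with at least 2 unique molecular identifiers (UMIs) of Twist1, Prrx1 and Prrx2 together, which made up 30538 of the 53546 cells kept over 7 libraries. Neural crest cells were sorted by EGFP fluorescence from embryos of a mixed Swiss-Webster background in which Wnt1-Cre, a driver active in the dorsal neural tube and the crest that leaves it, had switched on the ROSA-EGFP reporter. Control embryos carried Wnt1-Cre/+;ROSA-EGFPf/+, and gave 1 library at E8.5, 1 at E9.5 and 2 at E10.5. Libraries titled Tbx1 null, 1 at E9.5 and 2 at E10.5, carried the same Cre and reporter. Their genotype label reads Wnt1-Cre/+;Tbx1+/-;ROSA-EGFPf/+, which differs from the titles and from the study's methods, where these embryos are Tbx1-/-, and the groups here follow the titles. Each library pooled 2 or more embryos, so differences between libraries of a group hold both embryo and preparation. Per the study's supplement, the E10.5 null libraries pooled fewer embryos than the E10.5 controls. By somite count the first E10.5 null library was younger than the other E10.5 libraries. The part of pool size and somite count in the differences was not tested. Tissue differed with stage. It was the anterior part of the embryo with the head at E8.5 and the pharyngeal apparatus with the heart at E9.5. At E10.5 it was arches 2 to 6 with the heart but without the first arch. Neural tube was taken along with the tissue at E9.5 and E10.5.

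Forkhead factors bind DNA through a winged-helix domain and act mostly as transcriptional regulators of mesenchyme. Foxf1 and Foxf2 are hedgehog-responsive factors of mesenchyme that lies beside epithelium. Foxc1 and Foxc2 act in somites, vessels, the eye and the outflow tract of the heart, where loss of either in mice disturbs aortic arch formation. Foxd1 marks stromal progenitors of the kidney and mesenchyme of the face, and Foxd2 is a related factor of cranial mesenchyme, somites and kidney. Hand2, used to divide the cells, is a basic helix-loop-helix factor of ventral arch and outflow tract crest, and Hox genes mark the arch from which crest cells come: first arch crest has no Hox expression, second arch crest expresses Hoxa2 and more posterior arches also express Hox group 3 genes.

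The libraries held between 140264662 and 234844769 UMIs. Mesenchymal cells numbered from 2233 to 7081 per library, with a median of 16312 to 25643.5 UMIs per cell. No more than 44 cell barcodes were shared between any 2 libraries. Mesenchymal crest markers summed to between 1126 and 1582 CPM (counts of UMIs per 1000000) in mesenchymal cells at E9.5 and E10.5, against 312.9 at E8.5. The highest marker of that list was Twist1 or Prrx1, which also define the gate, so its sum does not check cell identity. Endothelial and blood markers stayed at or below 8.35. Other lists were higher. Heart muscle markers summed to 42.3 and 1.82 CPM in the E10.5 controls and 26.25 CPM in the E9.5 null. Epithelial markers reached 52.5 CPM and mesodermal markers 20.6 CPM. Glial or migrating crest markers summed to 28.7 and 31.9 CPM in the E10.5 controls and 77.3 and 119.5 CPM in the nulls. Neural markers stood apart in the null libraries at E10.5: the 5 markers Sox2, Sox1, Pax6, Elavl3 and Tubb3 summed to 189.3 and 766.9 CPM in the null libraries and 102.2 and 35.2 CPM in the controls. A UMI of Sox2, Elavl3 or Sox10 was present in 37.5% and 67.1% of null mesenchymal cells and in 18.2% and 7.12% of control mesenchymal cells at E10.5. Results on genotype are therefore given also after such cells were left out, an alternative chosen after seeing the data. Tbx1 was detected at 5.14 and 3.76 CPM over all cells of the control libraries at E10.5 and at 2.97 and 2.68 CPM in the nulls, while in mesenchymal cells the values overlapped, 7.72 and 4.52 against 6.2 and 6.28 CPM. Gene totals do not show which part of Tbx1 was read, so they do not check the deletion.

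The 6 genes lie in 4 places of the mm10 genome, with 2 close pairs. Foxf1 (ENSMUSG00000042812, chr8:121084386-121088144, 2 exons, plus strand) and Foxc2 (ENSMUSG00000046714, chr8:121116171-121118895, 1 exon, plus strand) are 28.0 kb apart. Foxf2 (ENSMUSG00000038402, chr13:31625816-31631403, 2 exons, plus strand) and Foxc1 (ENSMUSG00000050295, chr13:31806633-31812476, 1 exon, plus strand) are 175.2 kb apart. Foxd1 (ENSMUSG00000078302, chr13:98354242-98359305, 1 exon, plus strand) stands alone, and Foxd2 (ENSMUSG00000055210, chr4:114906282-114908873, 1 exon, minus strand) is 383 bp from the start of the noncoding gene Foxd2os on the opposite strand. The 250 bases before the start are shown for Foxf2, Foxd1 and Foxd2 because these genes had the largest differences by Hox expression in the mesenchyme, described below. They are from RefSeq on GRCm38.p6, 5′ to 3′ on the gene's strand, with each E-box (CANNTG, the core that basic helix-loop-helix factors bind) in capitals, at chr13:31625566-31625815, chr13:98353995-98354244 and chr4:114908899-114909148.
Foxf2: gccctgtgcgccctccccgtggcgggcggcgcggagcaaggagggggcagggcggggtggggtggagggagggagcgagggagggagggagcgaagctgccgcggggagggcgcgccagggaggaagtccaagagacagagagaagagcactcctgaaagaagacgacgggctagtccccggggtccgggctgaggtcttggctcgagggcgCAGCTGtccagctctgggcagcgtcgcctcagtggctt
Foxd1: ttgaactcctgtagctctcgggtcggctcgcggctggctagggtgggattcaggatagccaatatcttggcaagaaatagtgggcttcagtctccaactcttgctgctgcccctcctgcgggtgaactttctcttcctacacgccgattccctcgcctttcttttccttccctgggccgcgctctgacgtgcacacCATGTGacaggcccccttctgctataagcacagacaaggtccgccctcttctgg
Foxd2: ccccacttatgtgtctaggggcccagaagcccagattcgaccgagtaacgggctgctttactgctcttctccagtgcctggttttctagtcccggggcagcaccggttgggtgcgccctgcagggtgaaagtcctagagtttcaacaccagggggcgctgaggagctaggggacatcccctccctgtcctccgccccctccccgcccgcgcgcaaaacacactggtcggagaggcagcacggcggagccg
Of the 6 genes, 4 had such a window (Foxf2, Foxc1, Foxd1 and Foxd2). The windows of Foxf2 and Foxd1 held 1 E-box each, 38 and 54 bases before the start counted from the motif's first base, and those of Foxc1 and Foxd2 held none. An E-box was present in 66.2% of 32851 promoter windows of this length. On either strand, no window of the 4 held the E-box form CATCTG (in 14.4% of all windows) or the GLI core GACCACCC (in 0.703%). The GATA letters AGATAA, present in 9.99% of windows, and the TATA letters TATAAA, present in 12.4%, were also not in these 4. The 4 windows were 71.6% (Foxf2), 70.8% (Foxc1), 57.2% (Foxd1) and 64.4% (Foxd2) G and C, against a median of 52.4% over all windows.

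Foxf1, Foxf2 and Foxc2 were higher in the arches at E10.5 than at E9.5, while Foxc1 and Foxd2 were already present in mesenchymal cells at E8.5. Levels are CPM of the summed UMIs of a class of cells, and libraries are named in the order control E8.5, control E9.5, null E9.5, control E10.5 replicates 1 and 2, null E10.5 replicates 1 and 2. Because UMIs are counted at the 3′ end, levels were compared between samples and not between genes. Foxf1 was at 0.109, 3.33, 5.55, 22.4, 14.4, 26.1 and 27.1 CPM in mesenchymal cells. Foxf2 was at 0.149, 1.14, 1.65, 7.58, 6.11, 5.71 and 9.76 CPM. Foxc2 was at 0.746, 2.19, 2.37, 14.3, 13.4, 12.3 and 13.3 CPM. For these 3 genes, and also for Foxc1 and Foxd1, every library at E10.5 was above both libraries at E9.5, and these were above E8.5. The share of all genes with this order was not counted, and the tissue taken differed with stage.

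Foxc1 was at 12.4, 27.0, 23.5, 44.9, 43.6, 41.3 and 30.6 CPM in the same order of libraries. Foxd1 was at 0.285, 5.85, 7.82, 36.8, 30.1, 12.8 and 13.8 CPM, the controls at E10.5 being the highest. Foxd2 was at 12.04, 22.7, 15.7, 16.2, 15.7, 12.5 and 9.70 CPM, with its highest value in the E9.5 control and no order by stage. Cells classed as neural, with at least 2 Sox2 UMIs and none of Twist1, Prrx1 or Prrx2, gave the background: Foxf1, Foxf2 and Foxc2 stayed at or below 0.837 CPM there, Foxc1 between 0.26 and 1.32 CPM and Foxd2 between 0.217 and 2.74 CPM. Foxd1 was at 9.31 CPM in such cells at E8.5, above its 0.285 CPM in mesenchymal cells of that library, and at or below 0.998 CPM in the later libraries.

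**Figure D1:**
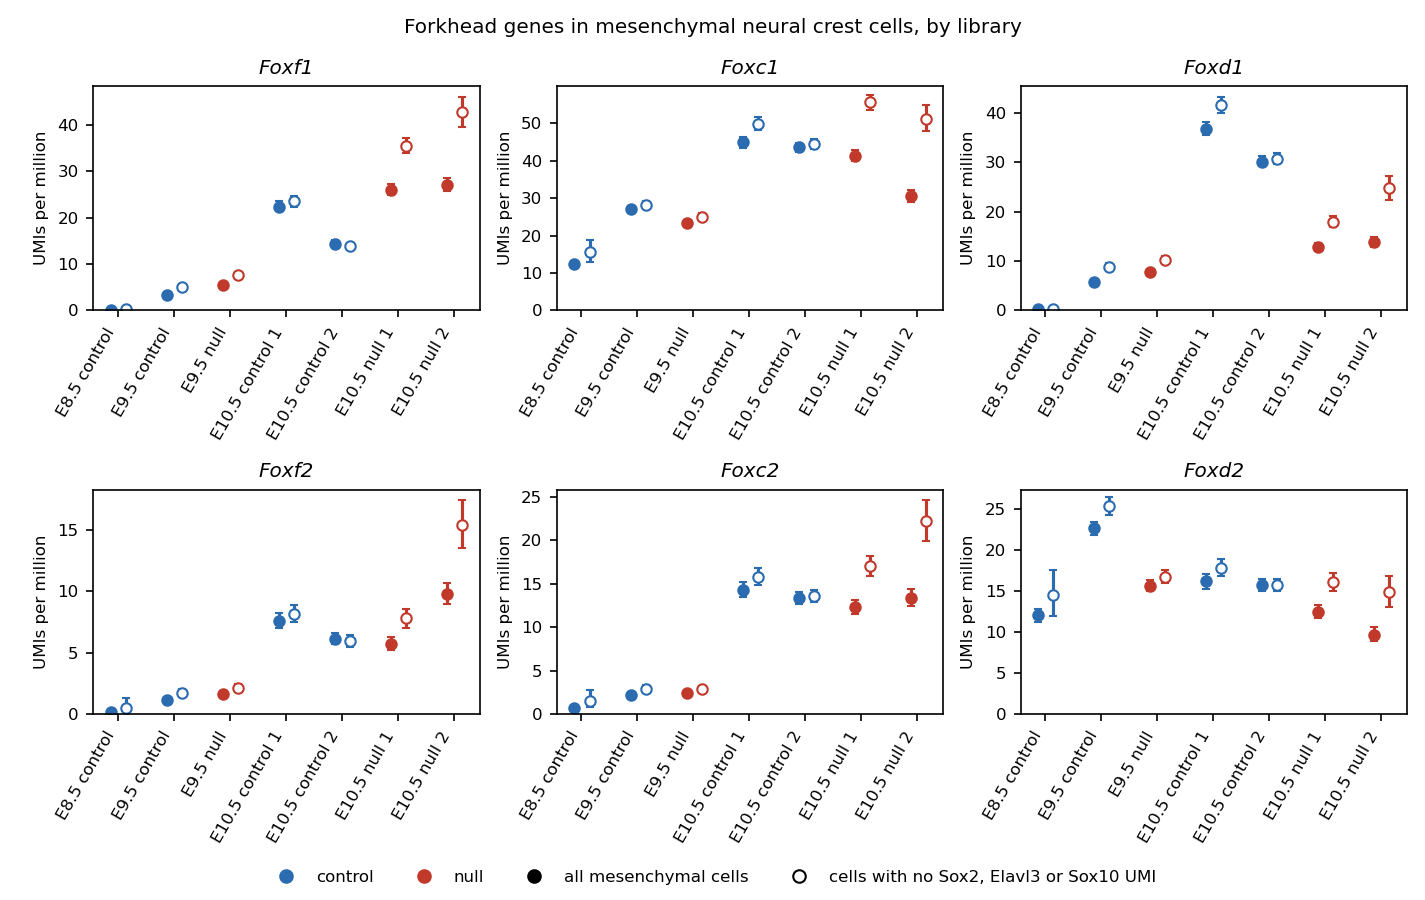
Level of each gene in mesenchymal cells of the 7 libraries, in CPM, with 95% Poisson intervals that cover counting error only. Filled points are all mesenchymal cells, open points those without a Sox2, Elavl3 or Sox10 UMI; Foxd1 stood at 36.8 and 30.1 CPM in the E10.5 controls and at 12.8 and 13.8 CPM in the nulls, and moved to 41.6, 30.7, 18.0 and 24.7 CPM in the open points.

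The test of stage was restricted to mesenchymal cells with a Hoxa2 or Hox group 3 UMI, since the first arch was dissected only at E9.5. In these cells Foxf1 was at 1.52 and 1.94 CPM at E9.5 (control, null) and at 17.8, 11.3, 26.9 and 27.1 CPM at E10.5, a log2 difference of 3.12 ± 0.27 (SE, adjusted p = 0.00148; edgeR quasi-likelihood test on library sums, Benjamini-Hochberg over all genes, genotype as a covariate). Foxf2 was at 0.705 and 0.940 CPM, then 6.48, 4.96, 5.76 and 9.50 CPM (log2 difference 2.61 ± 0.30, edgeR adjusted p = 0.00385). Foxc2 was at 1.43 and 2.10 CPM, then 14.1, 13.4, 12.4 and 12.8 CPM (log2 difference 2.51 ± 0.25, edgeR adjusted p = 0.00234). These 3 of the 6 genes passed the threshold of an adjusted p under 0.05, all of them higher at E10.5, where 17% of the 15553 genes tested passed in either direction. Foxd1 was at 1.70 and 4.42 CPM, then 35.1, 30.1, 11.9 and 12.5 CPM (log2 difference 2.21 ± 0.74, edgeR adjusted p = 0.101). Foxd1 passed under 6 of 17 alternatives, among them DESeq2, scaling by library totals and leaving out cells with a Sox2, Elavl3 or Sox10 UMI. Fitted within one genotype, the Foxd1 log2 difference was 3.89 in the controls and 0.98 in the nulls. Foxc1 differed by 0.08 ± 0.21 and Foxd2 by -0.53 ± 0.19 on the log2 scale, and neither passed (edgeR adjusted p = 0.797 and 0.0869). Under 3 of 17 alternatives Foxd2 did pass, as lower at E10.5. Without the single control library at E9.5 no gene passed at all (3027 had an unadjusted p under 0.05 with the same edgeR test), and Foxf1 then had an adjusted p of 0.0574. Scaling by library totals in place of TMM moved the median of all genes from 0.09 to 0.49 and the split of genes passing from 1357 higher and 1281 lower to 4295 higher and 457 lower, and Foxf1, Foxf2 and Foxc2 stayed higher and past the threshold under it.

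The share of cells with a UMI rose with stage for Foxf1, as its level did. Between the libraries at E10.5 the Foxf1 share did not follow the level: control 1 had the highest share, though its level was below both nulls. After each cell was thinned to 5000 UMIs, Foxf1 was found in 8.71% and 6.21% of control and 7.61% and 8.14% of null mesenchymal cells at E10.5, against 1.34% and 2.35% at E9.5 and 0.0361% at E8.5. Foxc1 was found in 17.5%, 16.9%, 16.2% and 12.4% of mesenchymal cells at E10.5 and in 5.96% at E8.5. Foxd1 was found in 11.2% and 10.1% of control and 3.92% and 4.68% of null cells at E10.5. In neural cells Foxc1 was found in 0.0886% to 0.575%, Foxf1 in at most 0.518%, and Foxd1 in at most 3.15%, at E8.5. Most mesenchymal cells thus had no UMI of a given gene at this depth, which does not show that they lacked its RNA.

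Foxf1 and Foxf2 marked the Hand2-positive side of the mesenchyme. Mesenchymal cells with at least 1 Hand2 UMI made up 41.7% and 42.5% of the control and 33.8% and 28.8% of the null cells at E10.5. Foxf1 was at 42.8, 26.8, 52.4 and 63.9 CPM in Hand2-positive cells and at 6.90, 4.75, 10.4 and 10.9 CPM in Hand2-negative cells (control 1, control 2, null 1, null 2). The ranges did not overlap, and within each library the Hand2-positive cells were the higher, by 5.66-fold in the fit with the library as a block (log2 2.50 ± 0.06, edgeR adjusted p = 5.49e-06). Foxf2 was at 11.3, 8.74, 9.50 and 16.95 CPM in Hand2-positive cells and 4.74, 4.07, 3.46 and 6.61 CPM in Hand2-negative cells, a 2.45-fold difference (log2 1.29 ± 0.09, edgeR adjusted p = 0.000324). Both passed under all 14 alternatives. The neural marker Tubb3 moved with this division too, at 22.2, 21.1, 62.9 and 239 CPM in Hand2-positive and 81.2, 28, 121 and 636 CPM in Hand2-negative cells. Both genes still passed without cells holding a Sox2, Elavl3 or Sox10 UMI, by smaller differences (log2 2.06 ± 0.13 for Foxf1 and 0.83 ± 0.09 for Foxf2, edgeR adjusted p = 0.000761 and 0.000341). These were 2 of the 6 genes, beside 19.8% of the 15372 genes tested that passed in either direction.

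The remaining 4 genes did not pass between the Hand2 classes. Foxc1 was at 55.2, 45.2, 48.1 and 56.1 CPM in Hand2-positive and 37.2, 42.4, 37.3 and 19.4 CPM in Hand2-negative cells (log2 0.61 ± 0.27, edgeR adjusted p = 0.215). Foxc2 was at 15.6, 13.5, 16.0 and 19.6 CPM against 13.3, 13.3, 10.1 and 10.6 CPM (log2 0.44 ± 0.15, edgeR adjusted p = 0.112). Both genes were higher in the Hand2-positive cells of each library, least so in control 2. Foxd2 was at 15.2, 13.8, 18.2 and 16.4 CPM against 16.9, 17.2, 9.10 and 6.77 CPM (log2 0.41 ± 0.35, edgeR adjusted p = 0.496), lower in Hand2-positive cells of the controls and higher in those of the nulls. Foxd1 was at 31.0, 24.5, 12.4 and 14.8 CPM against 41.1, 34.5, 13.04 and 13.4 CPM (log2 -0.23 ± 0.11, edgeR adjusted p = 0.209). With cells holding a Sox2, Elavl3 or Sox10 UMI left out, Foxd1 did pass as lower in Hand2-positive cells (log2 -0.72 ± 0.06, edgeR adjusted p = 4.86e-05). At E9.5, with 1 library of each genotype and no test, Foxd1 was at 16.6 and 18.0 CPM in Hand2-positive and 2.85 and 3.84 CPM in Hand2-negative cells. The tissue taken there held the first arch. Cells without Hox UMIs and with under 10 UMIs of Acta2 and Tagln gave 442 of the 481 Foxd1 UMIs of all Hand2-positive cells in the control and 781 of 809 in the null. Among Hoxa2-only cells under that limit Foxd1 was at 3.24 and 0.911 CPM in Hand2-positive and 2.31 and 6.27 CPM in Hand2-negative cells. Among cells with a Hox group 3 UMI under that limit it was higher in Hand2-positive cells, at 7.35 and 9.45 CPM against 0.437 and 2.46 CPM. The Hox classes thus differed, and no order between the stages is read from these values. Foxf1 at E9.5 lay as at E10.5, at 13.01 and 17.2 CPM against 0.617 and 0.993 CPM.

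Mesenchyme divided by Hox expression differed in 5 of the 6 genes. Cells with a UMI of Hoxa3, Hoxb3 or Hoxd3 (Hox 3 cells) were set against cells with Hoxa2 UMIs only. The neural marker Tubb3 moved with this division, at 104, 45.8, 140 and 595 CPM in Hox 3 cells and 24.9, 15, 28.4 and 120 CPM in Hoxa2-only cells, and its part in the differences was not tested. Without cells holding a Sox2, Elavl3 or Sox10 UMI only Foxd2 and Foxf2 of the 5 still passed. Foxd1 was at 22.5, 15.5, 8.59 and 10.1 CPM in Hox 3 cells and at 46.9, 38.9, 18.965 and 28.4 CPM in Hoxa2-only cells, 2.46-fold lower in the Hox 3 cells (log2 -1.30 ± 0.08, edgeR adjusted p = 7.57e-05). Foxd2 was at 10.2, 7.82, 9.44 and 7.92 CPM against 21.4, 21.2, 19.7 and 20.1 CPM, 2.42-fold lower (log2 -1.28 ± 0.09, edgeR adjusted p = 0.000162). Foxf2 was at 4.33, 3.49, 4.69 and 7.08 CPM against 8.49, 5.85, 8.01 and 25.7 CPM, 2.22-fold lower (log2 -1.15 ± 0.19, edgeR adjusted p = 0.00973). Each gene was lower in the Hox 3 cells of all 4 libraries, and for Foxd2 the 8 values formed separate ranges.

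Foxc1, at 37.2, 38.9, 36.8 and 26.2 CPM in Hox 3 cells and 53.5, 53.0, 52.7 and 51.7 CPM in Hoxa2-only cells, was 1.58-fold lower (log2 -0.66 ± 0.08, edgeR adjusted p = 0.0022). Foxc2 was at 10.8, 12.4, 11.7 and 11.3 CPM against 17.2, 14.0, 13.9 and 23.2 CPM (log2 -0.57 ± 0.14, edgeR adjusted p = 0.0383). Foxf1 was at 18.0, 12.7, 24.5 and 24.6 CPM against 17.7, 10.4, 31.8 and 44.0 CPM and did not pass (log2 -0.28 ± 0.17, edgeR adjusted p = 0.341): it was slightly higher in the Hox 3 cells of both controls and lower in those of both nulls. Of all 14901 genes tested, 16.4% passed in either direction, 1288 higher and 1153 lower. With cells holding a Sox2, Elavl3 or Sox10 UMI left out, Foxd2 and Foxf2 still passed (log2 -0.93 ± 0.18 and -0.63 ± 0.12, edgeR adjusted p = 0.033 and 0.00389), whereas Foxc1, Foxc2 and Foxd1 did not (log2 -0.21 ± 0.06, -0.10 ± 0.10 and -0.82 ± 0.25, edgeR adjusted p = 0.0542, 0.592 and 0.164). Foxf2 had an edgeR adjusted p of 0.05 without control 1, and Foxc2 did not pass without control 1 or without null 1 (edgeR adjusted p = 0.167 and 0.107).

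**Figure D2:**
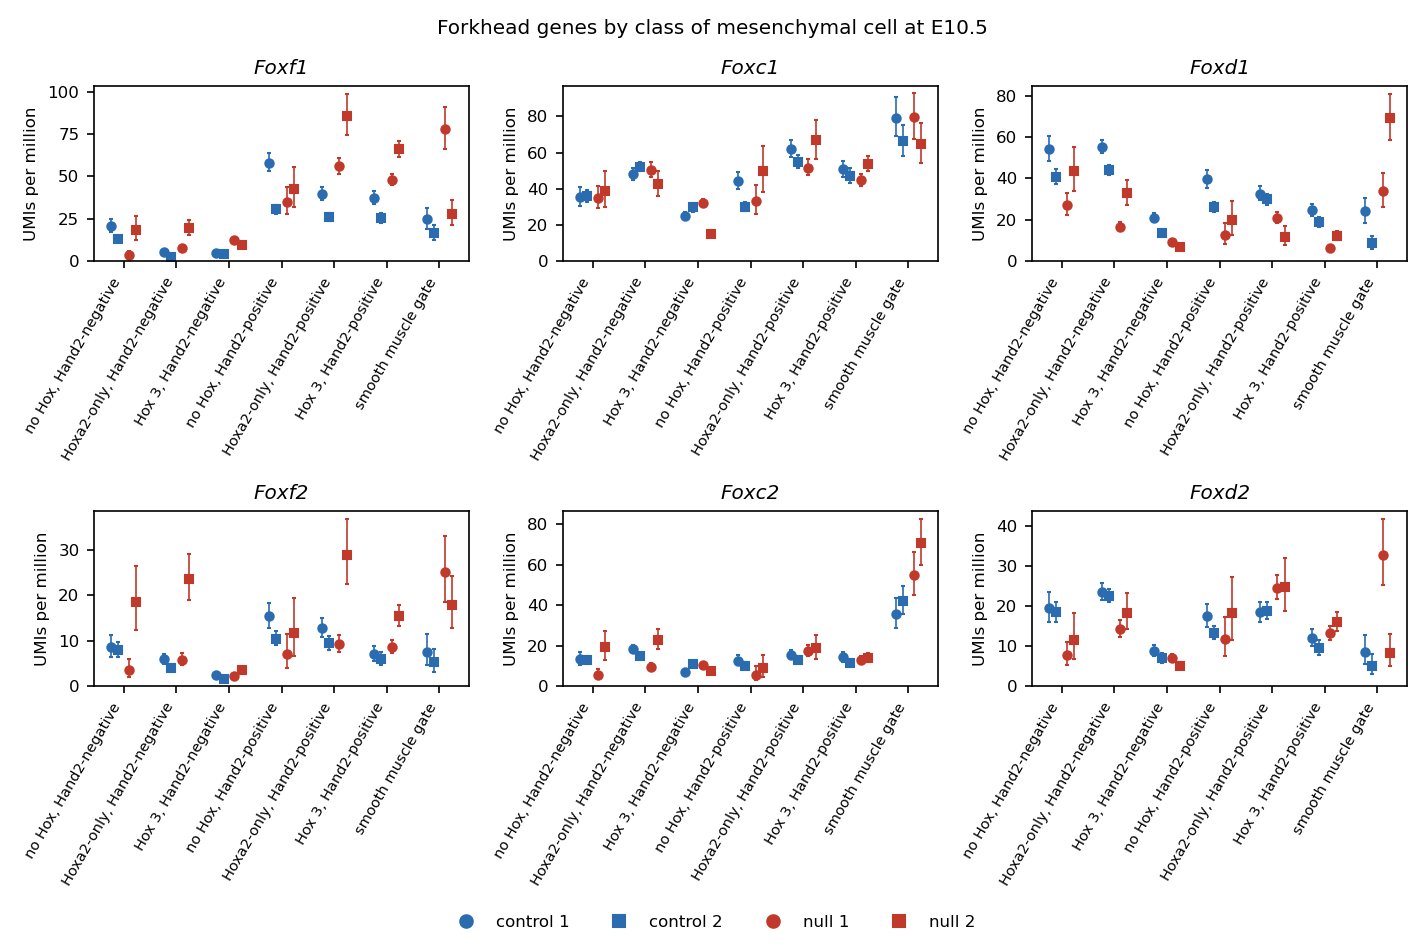
Level of each gene at E10.5 in 7 classes of mesenchymal cells that do not share cells, in CPM with 95% Poisson intervals (counting error only), for 2 control libraries (blue) and 2 null libraries (red). Foxf1 is high in the Hand2-positive classes, Foxc2 in the smooth muscle gate, and Foxd1 is lower in the nulls in most classes but not in the smooth muscle gate.

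Foxc2 and Foxc1 were the members raised in cells with smooth muscle transcripts. A gate of at least 10 UMIs of Acta2 and Tagln, which encode smooth muscle actin and transgelin, held 101 and 184 control and 74 and 73 null cells at E10.5. Foxc2 was at 35.6, 42.2, 54.8 and 70.5 CPM in the gate and at 13.5, 12.4, 11.2 and 10.9 CPM outside it, a 3.89-fold difference with separate ranges (log2 1.96 ± 0.24, edgeR adjusted p = 0.00164). Foxc1 was at 79.3, 66.1, 79.5 and 64.6 CPM against 43.7, 42.9, 40.4 and 29.1 CPM, a 1.76-fold difference (log2 0.81 ± 0.10, edgeR adjusted p = 3.36e-06). Both passed under all 15 alternatives, including gates of at least 5 and at least 20 UMIs. The gate separated much of the transcriptome, with 36.4% of 15465 genes passing in either direction.

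The other 4 genes did not pass and varied widely between the small gates. Foxf1 was at 24.5, 16.3, 78.0 and 27.9 CPM in the gate against 22.3, 14.3, 24.7 and 27.0 CPM outside (log2 0.48 ± 0.35, edgeR adjusted p = 0.382), with null 1 alone far above its outside cells. Foxf2 was at 7.41, 5.23, 25.2 and 17.9 CPM against 7.58, 6.14, 5.22 and 9.41 CPM (log2 0.74 ± 0.49, edgeR adjusted p = 0.333). Foxd2 was at 8.52, 4.96, 32.7 and 8.24 CPM against 16.5, 16.0, 11.96 and 9.77 CPM (log2 -0.31 ± 0.67, edgeR adjusted p = 0.781). Foxd1 was at 24.1, 8.54, 33.7 and 69.1 CPM against 37.3, 30.9, 12.3 and 11.4 CPM (log2 0.44 ± 1.01, edgeR adjusted p = 0.793), lower in the gate in the controls and higher in the nulls. The gate was not tested between genotypes, as it held under 200 cells in each library.

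**Figure D3:**
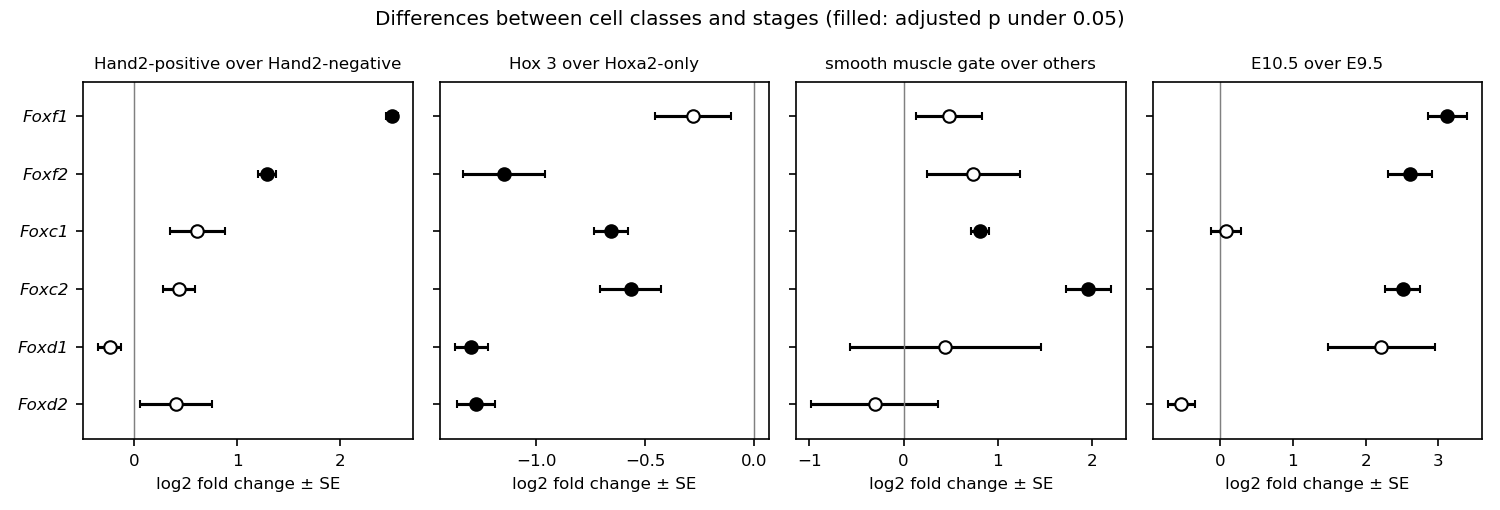
Log2 difference with SE for each gene between Hand2-positive and Hand2-negative, Hox 3 and Hoxa2-only, smooth muscle gate and other mesenchymal cells at E10.5, and between E10.5 and E9.5 in Hox-positive cells. Filled points had an edgeR adjusted p under 0.05: Foxf1 and Foxf2 by Hand2, all but Foxf1 by Hox, Foxc1 and Foxc2 by smooth muscle, and Foxf1, Foxf2 and Foxc2 by stage.

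In the main edgeR fit, with all 4 libraries and the filter on low counts, Foxd1 was the one member to pass the test by genotype, in 1 class of cells. In all mesenchymal cells at E10.5 it was at 36.8 and 30.1 CPM in the controls and 12.8 and 13.8 CPM in the nulls, or 33.5 ± 4.69 against 13.3 ± 0.73 CPM (SD, n = 2 each). The log2 difference was -1.52 ± 0.21 and missed the threshold (edgeR adjusted p = 0.0634, beside 0.151% of genes passing). In Hand2-negative cells, at 41.1 and 34.5 against 13.04 and 13.4 CPM, it passed, 3.28-fold lower in the nulls (log2 -1.72 ± 0.21, edgeR adjusted p = 0.0428, where 0.238% of genes passed). In Hand2-positive cells it was at 31.0 and 24.5 against 12.4 and 14.8 CPM (log2 -1.17 ± 0.23, edgeR adjusted p = 0.118, 0.191% of genes passing). In Hox 3 cells it was at 22.5 and 15.5 against 8.59 and 10.1 CPM (log2 -1.19 ± 0.25, edgeR adjusted p = 0.194, 0.054% of genes passing), and in Hoxa2-only cells at 46.9 and 38.9 against 18.965 and 28.4 CPM (log2 -1.04 ± 0.24, edgeR adjusted p = 0.136, 0.291% of genes passing). Both nulls were below both controls in each of the 5 classes, which share libraries and, in part, cells.

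Leaving out cells with neural or glial markers made the Foxd1 difference smaller in mesenchymal, Hand2-negative and Hox 3 cells and changed it little in Hand2-positive and Hoxa2-only cells, and the part of these markers was not tested. Without cells holding a Sox2, Elavl3 or Sox10 UMI, Foxd1 was at 41.6 and 30.7 CPM in control and 18.0 and 24.7 CPM in null mesenchymal cells (log2 -0.91 ± 0.24, edgeR adjusted p = 0.231), and at 51.2 and 35.6 against 21.9 and 31.9 CPM in Hand2-negative cells (log2 -0.86 ± 0.26, edgeR adjusted p = 0.184). In Hox 3 cells it then differed by -0.42 ± 0.34, in Hand2-positive cells by -1.02 ± 0.23 and in Hoxa2-only cells by -1.14 ± 0.24 on the log2 scale (edgeR adjusted p = 0.664, 0.272 and 0.136). Both nulls remained below both controls in all mesenchymal and in Hand2-negative cells, but no comparison passed. DESeq2 on the same sums called Foxd1 in all 5 classes, with adjusted p-values from 2e-09 in Hand2-negative to 0.0199 in Hoxa2-only cells. It also called far more genes of any kind than edgeR in each class, and these counts are given below. With 1 null left out, edgeR also called Foxd1 in mesenchymal cells (without null 1, edgeR adjusted p = 0.0389), in Hand2-positive cells (without null 1 or null 2, edgeR adjusted p = 0.0317 and 0.0186) and in Hoxa2-only cells (without null 2, edgeR adjusted p = 0.0364). In those classes more genes of any kind also passed with 1 library left out than in the main fit. The Hand2-negative call held under 10 of 15 alternatives. Besides the loss given above, it was lost without control 2 and under scaling by library totals (edgeR adjusted p = 0.117). It was also lost with DESeq2 size factors in edgeR and with a mesenchymal gate of at least 4 UMIs. Scaling by library totals moved the median of all genes in the 5 comparisons to between 0.121 and 0.192 on the log2 scale.

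Class shares differed between the genotypes as well: Hox 3 cells were 36.4% and 25.4% of control and 61.9% and 80.7% of null mesenchymal cells. When the 7 classes were given the same weights in every library, Foxd1 was at 33.8 and 25.0 CPM in the controls and 13.8 and 18.9 CPM in the nulls. This was closer than without weights (36.8 and 30.1 against 12.8 and 13.8 CPM) but still without overlap. Foxc1 was then at 41.0, 40.5, 41.0 and 37.7 CPM and Foxd2 at 14.7, 12.9, 12.3 and 13.01 CPM, closer between the genotypes than without weights. Foxf1 (20.2, 12.7, 24.4 and 31.9 CPM) and Foxf2 (6.72, 4.96, 5.75 and 14.1 CPM) lay further apart, through null 2, and Foxc2 (12.9, 12.8, 11.6 and 15.3 CPM) was highest in null 2.

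None of the other members passed by genotype in the main edgeR fit of all 4 libraries in any of the 5 classes, but some did under alternatives. Without the filter on low counts, edgeR called Foxd2 in Hand2-negative cells and Foxf1 and Foxf2 in Hoxa2-only cells. DESeq2 called Foxd2 in Hand2-negative cells too. Both settings passed far more genes of any kind in these classes than the main fit, as counted below. Others passed with 1 library left out. Without null 1, Foxc1 and Foxd2 passed in Hand2-negative cells (log2 -1.28 and -1.58, edgeR adjusted p = 0.0283 and 0.0189) and Foxf1 and Foxf2 in Hoxa2-only cells (log2 1.45 and 1.65, edgeR adjusted p = 0.0486 and 0.0172). Foxf1 also passed there without control 1 (log2 1.67, edgeR adjusted p = 0.00909). Foxf1 was higher in both nulls than in both controls in all 5: in mesenchymal cells (22.4 and 14.4 against 26.1 and 27.1 CPM, log2 0.35 ± 0.25, edgeR adjusted p = 0.526), in Hoxa2-only cells (17.7 and 10.4 against 31.8 and 44.0 CPM, log2 1.26 ± 0.28, edgeR adjusted p = 0.128), and by 0.60 ± 0.26, 0.68 ± 0.26 and 0.52 ± 0.24 on the log2 scale in Hand2-positive, Hand2-negative and Hox 3 cells (edgeR adjusted p = 0.428, 0.289 and 0.438). DESeq2 called Foxf1 in Hoxa2-only cells (adjusted p = 0.0107). Cells without Hox UMIs were not among the 5 classes, and there the genotypes overlapped for Foxf1, at 40.7 and 22.3 against 17.2 and 26.3 CPM. In all mesenchymal cells Foxf2, Foxc1 and Foxc2 differed by -0.03 ± 0.28, -0.47 ± 0.26 and -0.29 ± 0.20 on the log2 scale (edgeR adjusted p = 0.968, 0.42 and 0.518). Without cells holding a Sox2, Elavl3 or Sox10 UMI these became 0.54 ± 0.31, 0.05 ± 0.22 and 0.27 ± 0.21, each turned in sign. The Foxc1 difference was below 0 in all 5 classes, from -0.67 in Hand2-negative to -0.09 in Hand2-positive cells (0.05 there with library totals), and those of Foxf2 and Foxc2 were of either sign between classes. With 2 libraries a group these intervals are wide, and a missed threshold does not show that a gene was alike in both genotypes.

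**Figure D4:**
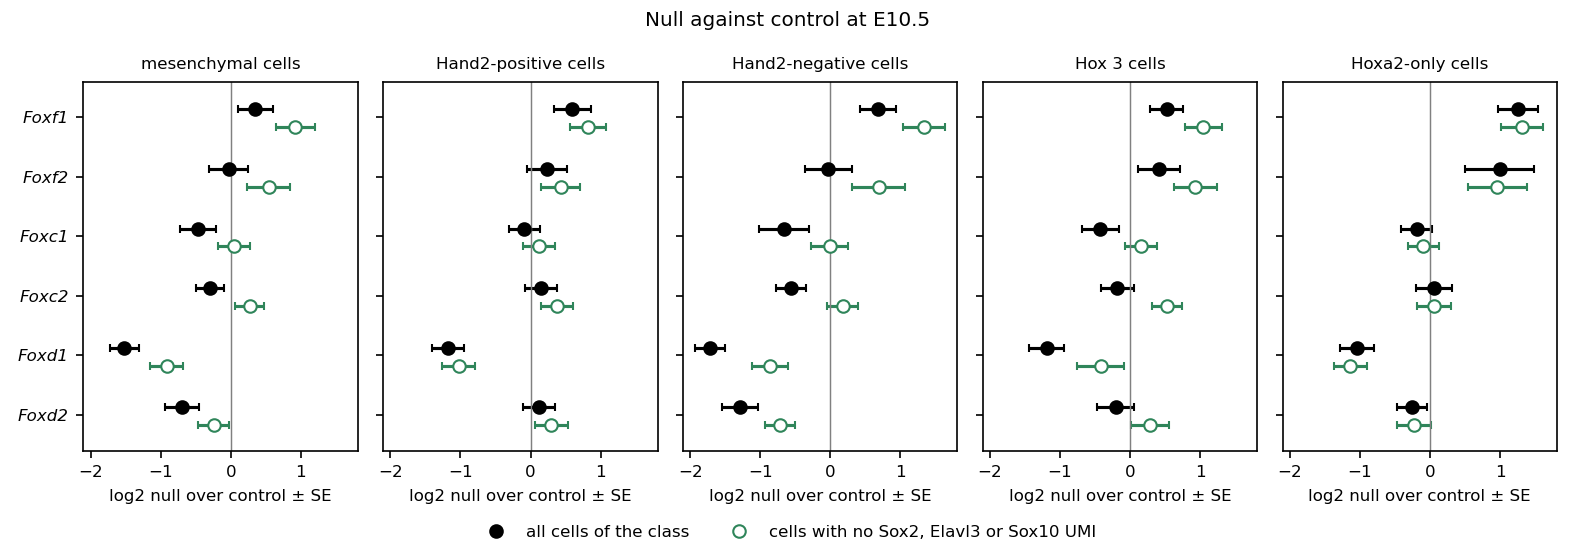
Log2 difference with SE between null and control libraries at E10.5 (n = 2 each) for each gene in 5 classes of mesenchymal cells, with all cells of the class (black) and without cells holding a Sox2, Elavl3 or Sox10 UMI (green). Foxd1 is below 0 in each panel, at -1.52 in all mesenchymal cells and -0.91 without those cells, and Foxf2, Foxc1 and Foxc2 cross 0 between the settings in mesenchymal cells.

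For Foxd2 the genotype difference itself differed between the Hand2 classes, and within Hox classes it did so by less. Foxd2 was at 16.9 and 17.2 CPM in control and 9.10 and 6.77 CPM in null Hand2-negative cells (log2 -1.29 ± 0.26, edgeR adjusted p = 0.12), but at 15.2 and 13.8 CPM in control and 18.2 and 16.4 CPM in null Hand2-positive cells (log2 0.12 ± 0.23, edgeR adjusted p = 0.861). The interaction of genotype and Hand2 class, with the library as a block, was 1.36 ± 0.13 on the log2 scale and passed (edgeR adjusted p = 0.0105), the only member among the 6, beside 0.332% of 15372 genes. Without cells holding a Sox2, Elavl3 or Sox10 UMI, Foxd2 was at 20.9, 17.4, 12.9 and 13.1 CPM in Hand2-negative and 14.4, 13.5, 19.6 and 16.96 CPM in Hand2-positive cells, and the interaction was 1.02 ± 0.13 (edgeR adjusted p = 4.81e-05). The call was lost without control 2 (log2 1.30, edgeR adjusted p = 0.133).

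The Hox make-up of the Hand2-negative cells differed between the genotypes, and Foxd2 was lower in Hox 3 cells. Hox 3 cells outside the smooth muscle gate were 774 of all 1930 and 1095 of all 3801 Hand2-negative cells in the controls and 1397 of 2112 and 1324 of 1590 in the nulls. The levels by Hox and Hand2 class that follow also leave out the gate. Among Hox 3 cells, Foxd2 was at 8.72 and 6.89 CPM in control and 7.07 and 5.04 CPM in null Hand2-negative cells, with overlapping groups, and at 11.996 and 9.47 against 13.1 and 15.8 CPM in Hand2-positive cells. The interaction was then 0.74 ± 0.26 on the log2 scale and did not pass (edgeR adjusted p = 0.543, with 6 of 14007 genes passing). Among Hoxa2-only cells, Foxd2 was at 23.5 and 22.5 against 14.1 and 18.3 CPM in Hand2-negative and at 18.3 and 18.7 against 24.5 and 24.7 CPM in Hand2-positive cells. There the interaction was 1.02 ± 0.16 and passed (edgeR adjusted p = 0.000451, with 266 of 13058 genes passing). Both fits were added after the Hox make-up was seen. Of the 16 alternatives tried in all, Foxd2 passed under 14.

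Interactions of the other 5 members did not pass in the main fit: 0.65 ± 0.13 for Foxc2, 0.48 ± 0.10 for Foxd1, 0.22 ± 0.16 for Foxf2, 0.58 ± 0.55 for Foxc1 and -0.13 ± 0.10 for Foxf1 on the log2 scale (edgeR adjusted p = 0.105, 0.122, 0.669, 0.793 and 0.708). Without cells holding a Sox2, Elavl3 or Sox10 UMI, that of Foxf1 was -0.54 ± 0.11 and passed (edgeR adjusted p = 0.00539), the null being above the control by more in Hand2-negative cells. The Foxf1 levels there were 8.52, 4.62, 16.3 and 20.6 CPM in Hand2-negative cells (control 1, control 2, null 1, null 2). Its interaction also passed with a mesenchymal gate of at least 4 UMIs. That of Foxc2 passed under 3 of 16 alternatives and that of Foxd1 under 2 of 16. Each of these settings passed more genes of any kind than the main fit, as counted below.

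Some genes next to the members on the chromosome passed in the same comparisons as they did, and others did not. Fendrr, a noncoding gene that starts 1275 bp from Foxf1 on the other strand, was at 4.54, 6.2, 2.41 and 9.41 CPM in Hand2-positive and 1.07, 1.36, 0.437 and 1.69 CPM in Hand2-negative cells (log2 2.29 ± 0.13, edgeR adjusted p = 0.000179). Foxl1, a forkhead gene 9.0 kb from Foxc2, was also higher in Hand2-positive cells (log2 1.27 ± 0.19, edgeR adjusted p = 0.00569), and both were higher at E10.5 than at E9.5 (log2 4.77 ± 0.69 and 3.71 ± 0.71, edgeR adjusted p = 0.00741 and 0.0153). Foxd2os was at 24.3 and 28.6 CPM in control and 8.41 and 5.98 CPM in null Hand2-negative cells, lower in the nulls (log2 -2.07 ± 0.28, edgeR adjusted p = 0.0451) with and without cells holding a Sox2, Elavl3 or Sox10 UMI (log2 -1.55 ± 0.22, edgeR adjusted p = 0.019 without). Its interaction of genotype and Hand2 class was 1.42 ± 0.15 (edgeR adjusted p = 0.0175). This fell to 0.59 ± 0.32 within Hox 3 cells and 1.00 ± 0.18 within Hoxa2-only cells (edgeR adjusted p = 0.68 and 0.00418). Foxd2os was also lower in Hox 3 than in Hoxa2-only cells (log2 -1.21 ± 0.07, edgeR adjusted p = 0.000101). In each of these cases its direction was that of Foxd2. In Hand2-positive cells the 2 genes parted. Foxd2os was at 17.7 and 16.8 CPM in the controls and 13.5 and 11.7 CPM in the nulls (log2 -0.58 ± 0.24, edgeR adjusted p = 0.4), where Foxd2 was higher in both nulls. Others did not match their neighbour: Foxl1 passed by Hand2 where Foxc2 did not, and did not pass in the smooth muscle gate (log2 0.30 ± 0.42, edgeR adjusted p = 0.617), where Foxc2 did. By genotype in mesenchymal cells Fendrr differed by -0.46 ± 0.53 (edgeR adjusted p = 0.698) and Foxf1 by 0.35 ± 0.25. Of 15 neighbouring genes, 14 were tested: 3 were higher and 0 lower by Hand2 and 0 higher and 2 lower in Hox 3 cells, with a median log2 difference of 0.021 and -0.133, against -0.005 and -0.027 over all genes tested, and these counts are near the 19.8% and 16.4% of all genes that passed.

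Members were found in the same cell more often than separate detection would give. In mesenchymal cells thinned to 5000 UMIs, Foxf1 and Foxf2 were found together in 65, 64, 34 and 37 cells at E10.5, which was 5.57, 5.42, 5.51 and 5.29 times the product of their shares. Within Hand2-positive cells the ratio was 3.48, 3.32, 3.72 and 3.43, and within Hand2-negative cells 9.98, 11.7, 5.99 and 5.61, so the pair occurred together on both sides of the Hand2 division. Foxc1 and Foxc2 gave 1.90, 1.97, 2.52 and 2.72, and Foxd1 and Foxd2 gave 2.01, 1.69, 2.49 and 5.96. All 15 pairs were above 1 in all 4 libraries, but pairs of other genes were not measured, so nothing particular to the members is read from these ratios. Cells of other types inside the gate, which were more frequent in the nulls, can enter such ratios, and their part was not tested.

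**Figure D5:**
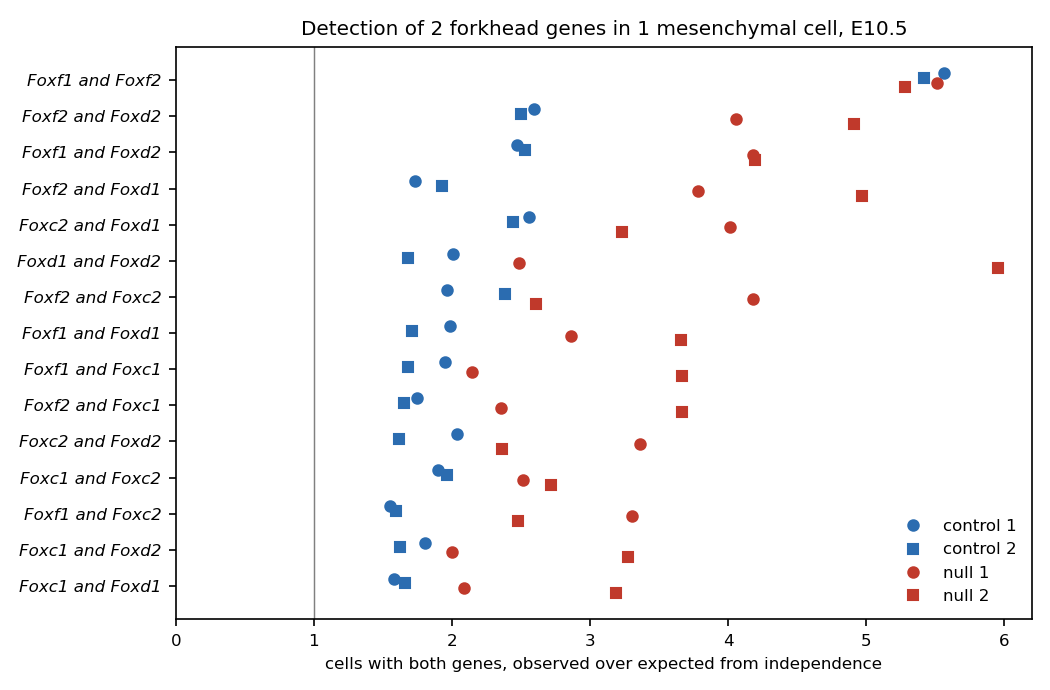
Number of mesenchymal cells at E10.5 with UMIs of both genes of a pair, over the number given by the product of their shares, in 2 control (blue) and 2 null (red) libraries after thinning to 5000 UMIs; the grey line marks 1. Foxf1 with Foxf2 lies between 5.29 and 5.57 in the 4 libraries, while most other pairs are higher in the nulls.

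Across 42 profiles of 7 cell classes in the 6 libraries of E9.5 and E10.5, Foxf1 and Foxf2 were most alike (Pearson r of 0.89 on log2 CPM + 1), followed by Foxf2 and Foxc2 (0.77) and Foxc1 and Foxc2 (0.74). The profiles share libraries and gates, so r is descriptive. Among 5629 genes with a mean of at least 20 CPM, the 3 profiles most like that of Foxf1 were Gnas (0.892), Capn6 (0.869) and Meg3 (0.866), and for Foxf2 they were Foxf1, Ptch1 (0.874) and Carhsp1 (0.839). Foxc2 was most like Lgals1 (0.911), Epb41l3 (0.899) and Wwc2 (0.896), and Foxc1 most like Tcim (0.840), Mecom (0.801) and Evi5 (0.788). Foxd1 was most like Sdc2 (0.766), Ddr2 (0.757) and Apoe (0.756). Foxd2 had no close match: its highest values were 0.598 with Pdlim4, 0.541 with Oaf and 0.523 with Cited1.

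The hedgehog pathway acts upstream of Foxf1 and Foxf2 in other tissues, and a list of its genes and response genes was measured in the same cells. Of 14, 4 were higher in Hand2-positive cells and 2 lower, with a median of 0.117, where 19.8% of all genes passed. The higher genes included Hhip and Ptch1, which bind hedgehog ligands (log2 1.33 ± 0.13 and 1.12 ± 0.12) and the effector Gli1 (0.84 ± 0.14), and the lower were Osr2 and the coreceptor Gas1 (-1.21 ± 0.23 and -0.76 ± 0.04; edgeR adjusted p from 0.000146 to 0.0128 over these 5). In Hox 3 cells 3 were higher (Osr1, Cdon and Boc) and 4 lower (among them Ptch1, Gli1 and Smo, median of the list -0.065), where 16.4% of all genes passed. At E10.5, 8 were higher than at E9.5 and 0 lower, with a median of 0.914 against 0.09 over all genes, of which 17% passed. In the 5 genotype comparisons 0 of 14 passed with edgeR, with medians between -0.183 and -0.504 against -0.007 to -0.02 over all genes.

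The other lists are given by their counts, beside 19.8% of all genes passing by Hand2, 16.4% by Hox and 36.4% in the smooth muscle gate. Of 12 cardiac crest factors, 9 were higher in Hand2-positive cells (the 4 largest were Hand1, Gata5, Tbx20 and Gata6, log2 4.75 ± 0.21 to 3.59 ± 0.39), 5 in Hox 3 cells and 8 in the smooth muscle gate, where Msx1 alone was lower (log2 -1.61 ± 0.15). By genotype, Gata3 was higher in null Hoxa2-only cells (log2 2.16 ± 0.32, edgeR adjusted p = 0.035), where 0.291% of all genes passed. Of 12 smooth muscle genes besides Acta2 and Tagln, 10 were higher in the smooth muscle gate, the largest being Cnn1 (log2 7.74 ± 0.18), and 7 in Hand2-positive cells, a count of 1 without cells holding a Sox2, Elavl3 or Sox10 UMI. Of 38 other forkhead genes, 19 to 22 were tested in each comparison. By Hand2, 3 were higher (Foxl1, Foxp1 and Foxo3) and 2 lower (Foxj1 and Foxb1) of 22, in Hox 3 cells 4 were higher (Foxd3, Foxj1 and Foxn3 among them) and 1 lower (Foxp1) of 21, and in the smooth muscle gate 2 were higher (Foxs1 and Foxp1) and 1 lower (Foxm1) of 21. Their median log2 differences were 0.037, -0.004 and 0.298, against -0.005, -0.027 and -0.073 over all genes tested. The Foxd3 difference by Hox fell from log2 1.92 to 0.39 without cells holding a Sox2, Elavl3 or Sox10 UMI. It did not pass then (edgeR adjusted p = 0.736). Foxs1, a forkhead gene of perivascular cells, was at 5.56, 0.827, 5.03 and 4.58 CPM in the smooth muscle gate and at or below 0.435 CPM outside (log2 3.72 ± 0.53, edgeR adjusted p = 2.63e-05). Foxd3, a factor of early and glial crest, was at 1.00 and 0.511 CPM in control and 11.4 and 11.5 CPM in null mesenchymal cells (log2 3.75 ± 0.37, edgeR adjusted p = 0.0191), the one gene of this list to pass by genotype, which it did in 4 of the 5 classes. Without cells holding a Sox2, Elavl3 or Sox10 UMI it did not pass in mesenchymal or Hand2-positive cells (log2 2.22 ± 0.66 and 2.67 ± 0.78, edgeR adjusted p = 0.281 and 0.402) and was too low to be tested in the other 3 classes.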

How the data were processed

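Cells were sorted and prepared with the 10x Chromium 3′ kits (version 2 at E8.5, version 3 for the E9.5 null and the first E10.5 null library, version 3.1 for the others), and the authors deposited UMI counts per gene and barcode for each of the 7 libraries, made with Cell Ranger 6.0.1 on mm10 per the labels. From these counts, cells were kept when at least 1000 genes were detected and mitochondrial UMIs did not exceed 10%. Barcodes with the highest Scrublet doublet scores (scanpy 1.11.5) were removed, their number set by an expected rate of 0.8% per 1000 barcodes. UMIs were summed per library and class of cells. Sums were compared with edgeR 4.0.16 (TMM, filterByExpr, robust quasi-likelihood fit, Benjamini-Hochberg adjustment over all genes tested, threshold 0.05), with the library as a block for classes of the same library. The code was tested on simulated data. Cells are not replicates, the libraries are pools, and p-values measure the spread between libraries only. E8.5 was not tested, and E9.5 entered the stage test only. Kit version and genotype are partly confounded. CPM values carry 95% Poisson intervals and shares exact Clopper-Pearson intervals, both for counting error only. Members and gene lists were chosen with earlier results of these data known. Besides the members, at most 4 called genes per list, comparison and direction, and the 3 profiles most like each member, were named. Alternatives were DESeq2 1.42.0, other scalings, filters, gates and depths, and each library left out. A gene of the hedgehog list is not reported here by its values.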

Additional observations from a re-analysis of the deposited data

Results flagged for a closer look

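The genotype difference of Foxd2 differed between Hand2-positive and Hand2-negative cells at E10.5 by 1.36 on the log2 scale (edgeR adjusted p = 0.0105), a difference that was itself tested. The test rests on 2 control and 2 null libraries, and was lost without control 2. Hand2-negative cells were mostly Hox 3 cells in the nulls and not in the controls: within Hox 3 cells the difference was 0.74 (edgeR adjusted p = 0.543) and within Hoxa2-only cells 1.02 (edgeR adjusted p = 0.000451) for Foxd2.

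Over all mesenchymal and over Hox-positive cells, null and control levels of Foxd1 lay in opposite order at the 2 stages, and those of Foxc2 nearly so, a difference that was not tested because E9.5 had 1 library of each genotype. The ratio of null to control CPM of Foxd1 at E9.5 was 1.34 in mesenchymal cells (5.85 and 7.82 CPM) and 2.61 in Hox-positive mesenchymal cells (1.70 and 4.42 CPM), while both nulls were below both controls at E10.5. Smaller classes at E9.5 differed. Outside the smooth muscle gate, cells without Hox UMIs had Foxd1 at 4.07 and 2.97 CPM (control, null) if Hand2-negative and 21.1 and 20.97 CPM if Hand2-positive. Hoxa2-only, Hand2-positive cells had 3.24 and 0.911 CPM. The null was higher in the remaining classes. For Foxc2 the ratio at E9.5 was 1.08 in mesenchymal cells (2.19 and 2.37 CPM) and 1.47 in Hox-positive cells (1.43 and 2.10 CPM). At E10.5 both nulls were below both controls (14.3 and 13.36 against 12.3 and 13.35 CPM in mesenchymal cells), but control 2 and null 2 were almost equal in mesenchymal cells. This order did not hold for Foxc2 in mesenchymal cells when the classes were given the same weights (2.43 in the control and 2.26 in the null at E9.5, 12.9 and 12.8 against 11.6 and 15.3 CPM at E10.5), nor without cells holding a Sox2, Elavl3 or Sox10 UMI (log2 0.27 at E10.5).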

How the results depend on the processing

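Of the log2 differences of the 6 members, 782 of the values recomputed under the alternatives kept their direction and side of the threshold, 46 passed where the main value did not, 18 no longer passed and 54 turned in sign. Counts of genes passing were less stable. In the 5 genotype comparisons (mesenchymal, Hand2-positive, Hand2-negative, Hox 3, Hoxa2-only; 24, 27, 36, 8 and 40 genes) they were 697, 283, 623, 237 and 301 with DESeq2, 2, 1, 11, 3 and 10 with library totals in place of TMM, and 1409, 615, 1544, 81 and 645 without the filter on low counts. With cells thinned to 5000 UMIs, 47, 46, 121 and 21 genes passed in the first 4. With doublets kept, 16 passed in Hand2-positive and 3 in Hox 3 cells. A mesenchymal gate of at least 4 UMIs gave 8, 93 and 20 in Hand2-positive, Hand2-negative and Hox 3 cells, leaving out cells with a Sox2, Elavl3 or Sox10 UMI gave 8 and 93 in the first pair of these, DESeq2 size factors gave 18 in Hand2-negative cells, and Hox gates of at least 2 UMIs gave 69 in Hoxa2-only cells. The interaction (51 genes) gave 142 with DESeq2, 104 with DESeq2 size factors, 18 with library totals, 284 without the filter, 96 with doublets kept, 185 thinned, 261 with a gate of at least 4 UMIs, 570 without cells with a Sox2, Elavl3 or Sox10 UMI, 103 with a Hand2 gate of at least 2 UMIs, 6 within Hox 3 and 266 within Hoxa2-only cells. The Hand2 comparison (3037 genes) gave 1791 without cells with a Sox2, Elavl3 or Sox10 UMI. Thinning gave 1489 for Hox 3 against Hoxa2-only (2441) and 3555 for the smooth muscle gate (5630). The stage comparison (2638) gave 4752 with library totals and 229 in the null libraries only. Library totals also moved the split of genes passing between Hox 3 and Hoxa2-only cells from 1288 higher and 1153 lower to 1445 and 469, and in the smooth muscle gate from 2536 and 3094 to 2915 and 2308. The causes were not tested.

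Leaving out 1 library at a time gave 27 to 344 genes in mesenchymal, 100 to 845 in Hand2-positive, 22 to 493 in Hand2-negative, 12 to 330 in Hox 3 and 107 to 568 in Hoxa2-only cells by genotype, 995 to 2862 by Hand2, 784 to 2532 by Hox, 10 to 156 for the interaction and 0 to 4182 by stage (0 without the E9.5 control, with 3027 genes at an unadjusted p under 0.05 in edgeR). A lone library was then assumed to vary like the others. The log2 ranges of the members that turned were -0.35 to 0.27 (mesenchymal), -0.13 to 0.58 (Hand2-positive) and -0.46 to 0.34 (Hand2-negative) for Foxf2, -0.23 to 0.04 for Foxc1 and -0.00 to 0.27 for Foxd2 (Hand2-positive), and -0.24 to 0.38 for Foxc2 (Hoxa2-only) by genotype, -0.40 to 1.15 for Foxd1 and -1.06 to 0.17 for Foxd2 in the smooth muscle gate, -0.17 to 0.00 for the interaction of Foxf1, and -0.07 to 0.23 for Foxc1 by stage.

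None of the members' values that turned had passed the threshold as reported. By genotype, leaving out cells with a Sox2, Elavl3 or Sox10 UMI gave Foxf2 0.54 and 0.69 (mesenchymal, Hand2-negative), Foxc1 0.05, 0.12 and 0.15 (mesenchymal, Hand2-positive, Hox 3), Foxc2 0.27, 0.18 and 0.53 (mesenchymal, Hand2-negative, Hox 3) and Foxd2 0.29 (Hox 3). It also gave -0.06 for Foxd2 by Hand2, 0.19 for Foxf1 by Hox, and -0.20 for Foxf2 and -0.13 for Foxd1 in the interaction. A gate of at least 4 UMIs gave Foxf2 0.40 and 0.52 (mesenchymal, Hand2-negative), Foxc1 0.05 (Hand2-positive), Foxc2 0.14, 0.01 and 0.25 (mesenchymal, Hand2-negative, Hox 3) and Foxd2 0.04 (Hox 3) by genotype, Foxf1 0.03 by Hox and Foxf2 -0.08 in the interaction. Library totals gave Foxf2 0.18 and 0.19 (mesenchymal, Hand2-negative) and Foxc1 0.05 (Hand2-positive), and cell filters of 200 genes and 5% mitochondrial UMIs gave Foxf2 0.12 and 0.10 (mesenchymal, Hand2-negative). Thinning gave -0.08 for Foxf2 and -0.15 for Foxd2 (Hand2-positive), -0.27 for Foxc2 (Hoxa2-only), -0.02 for Foxd1 in the smooth muscle gate and 0.09 for Foxf1 in the interaction. Doublets kept gave 0.02 for Foxf1 in the interaction and -0.01 for Foxc1 by stage, a Hand2 gate of at least 2 UMIs gave 0.06 for Foxc1 (Hand2-positive), Hox gates of at least 2 UMIs gave -0.02 for Foxc2 (Hoxa2-only), and null libraries only gave -0.10 for Foxc1 by stage. In the interaction, Hox 3 cells alone gave -0.00 for Foxc2 and -0.21 for Foxd1, and Hoxa2-only cells alone gave -0.69 for Foxf2.

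Replicate numbers are shared by control and null libraries at E10.5, but with 2 pairs and a correlation of 0.0578 over 15925 genes between same-numbered deviations they were not taken as paired. With the number as a replicate block, 194, 349, 92, 263 and 569 genes passed in the 5 genotype comparisons, Foxd1 in each of them (edgeR adjusted p from 0.00496 to 0.021) and Foxf1 in Hoxa2-only cells (0.0039).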

Other observations

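Foxd1 in the smooth muscle gate lay the other way from mesenchymal cells outside the gate at E10.5. It was at 24.1 and 8.54 CPM in the control gates and at 33.7 and 69.1 CPM in the null gates, with 101, 184, 74 and 73 cells, while outside the gate it was at 37.3 and 30.9 CPM in the controls and 12.3 and 11.4 CPM in the nulls. The order was not the same in all classes outside the gate: in Hand2-negative cells without Hox UMIs Foxd1 was at 54.4 and 40.7 CPM in the controls and 27.3 and 43.4 CPM in the nulls. The contrast was seen in the values and was not tested.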
